A study of Homo sapiens with 20 samples.

Results

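REST and its corepressors were followed through neuronal differentiation as a set of 10 genes, out of 20237 coding records. The set holds REST itself, the CoREST genes RCOR1, RCOR2 and RCOR3, the small phosphatase genes CTDSP1, CTDSP2 and CTDSPL, the scaffold gene SIN3A, and the histone deacetylase genes HDAC1 and HDAC2. Members were chosen by gene symbol, and of several records for a symbol the highest by mean level over the days was taken, with 1 exception for HDAC1 given below. All 10 had a record, and all 10 had a mean of at least 1 FPKM (sequenced fragments, corrected for transcript length and library size).

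The cells were neural progenitors made from the human embryonic stem cell line H1, an established line, so every value describes 1 genotype. Differentiation began when FGF, which keeps progenitors dividing, was withdrawn and BDNF, a neurotrophic factor, was added. The base medium and its supplements were changed at the same time, so these changes cannot be told apart at the first step. PolyA RNA was sequenced at day 0 and then at days 1, 2, 4, 5, 11 as well as 18, with 3 cultures a day and 2 at day 5, where the submitters had removed 1 outlier culture. Cultures for days 5, 11 and 18 had been replated at day 4 onto Poly-D-lysine/laminin, while the earlier ones grew on Matrigel, so time and surface cannot be told apart across that step. The files hold 1 FPKM value per record and day, pooled over the cultures of that day before deposit, so no replicate error, read depth or test stands behind any value below. Where 7 values follow each other they are in the order of the days. A value near another may therefore not differ from it, and no difference between days was set here against the spread between cultures, since the authors' own tests of adjacent days were not used.

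REST is a zinc finger protein that binds a DNA element called RE1 and holds neuronal genes silent in stem cells, progenitors and non-neuronal tissues. It works through 2 sets of corepressors. One end of the protein recruits SIN3A with the deacetylases HDAC1 and HDAC2, and the other recruits a CoREST protein, which brings in the same deacetylases and the histone demethylase LSD1, encoded by KDM1A. The small phosphatases of the CTDSP family, which act on the tail of RNA polymerase II, are also recruited to RE1 sites. REST is known to decline as progenitors become neurons.

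The element that REST reads is shown first, because the levels of its target genes are set beside those of REST later on. The search used the 15 letters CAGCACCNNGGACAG, which are the centre of the known RE1 element, on both strands within 2 kb on either side of the start of each coding record (hg19). The following 7 sites lie at genes on a fixed list of 32 known REST targets, and capitals mark the matched letters, each site being written in its own reading direction.
SYN1, chrX:47479473-47479487, minus strand, 224 bases upstream of the record start: cagcttCAGCACCGCGGACAGtgcctt
SCN2A, chr2:166094996-166095010, plus strand, 909 bases upstream: ggttctCAGCACCATGGACAGcgttac
SYP, chrX:49056585-49056599, minus strand, intron, 69 bases into the gene: gcgctcCAGCACCGTGGACAGagcccg
GRIA2, chr4:158141544-158141558, minus strand, intron, 256 bases into the gene: gcctttCAGCACCGAGGACAGcgcctc
SNAP25, chr20:10200322-10200336, plus strand, intron, 852 bases into the gene: acctttCAGCACCGGGGACAGcggtcc
CHGA, chr14:93389870-93389884, plus strand, intron, 432 bases into the gene: agttttCAGCACCGCGGACAGcgcctc
BDNF, chr11:27742227-27742241, minus strand, exon, 1371 bases into the gene: tccattCAGCACCTTGGACAGagccaa
The 15 letters were present near the start of 11 of the 32 target genes (34.4%) and of 101 of 19295 coding records scanned (0.523%). The target list is known for such sites, so that share is no independent finding. None of the 10 members held the letters in this window (0 of 10), which says only that this exact string was not there.

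REST was lower at day 18 than at day 0, and most of the difference relative to other genes came in the last step. Its record (chr4:57774042-57798339, plus strand, 4 isoforms) stood at 7.68, 6.91, 7.07, 6.48, 6.06, 5.37 and 3.11 FPKM over the 7 days. The highest value was at day 0 and the lowest at day 18, which held 40.5% of the day 0 level. REST transcripts were thus still listed above 3 FPKM at the last day, when neuronal genes were high.

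FPKM sums were not equal between days: over all records they went from 413978 at day 0 to 251156 at day 18, and the median coding record changed by -0.60 on the log2 scale. Changes are therefore given as the difference in log2(FPKM + 0.1) between days, relative to the median change of 11793 coding records with a mean of at least 1 FPKM. The small constant understates the change of low genes. On that scale REST changed by -0.68 from day 0 to day 18, and 19.6% of coding records had a lower change. By day 11 the difference from day 0 was only -0.18. The step from day 11 to day 18 alone was -0.49, against -0.04 from day 0 to day 1.

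A gene was called when it moved 2-fold or more relative to the median record. Of all coding records, 14.7% were called higher and 12.1% lower at day 18 than at day 0. Of the 10 members, 1 was called higher (RCOR2) and 1 lower (CTDSPL), a share close to that background, and both lay just past the threshold. In all, 2 members lay above the median record and 8 below it, and the median of the 10 was -0.36. These directions held with the FPKM values as deposited and with each day divided by its FPKM sum. In bulk RNA, fewer cells of a type and less RNA per cell cannot be told apart.

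The CoREST genes separated from one another within the first day. The 3 paralogues encode scaffolds of the CoREST type, and whether they are equivalent in the complex was not tested here. RCOR2 (chr11:63678704-63684316, minus strand) stood at 24.1, 37.1, 40.3, 40.0, 36.3, 36.9 and 32.3 FPKM over the 7 days. Its change from day 0 to day 1 was +0.73, higher than that of 90.9% of coding records and the largest of any member at any step. From day 0 to day 18 it changed by +1.02, or 2.02-fold relative to the median record, and by +0.42 on the log2 scale with the values as deposited. All 6 later days were above day 0.

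RCOR1, the first described CoREST, went the other way. Its record (chr14:103059233-103196912, plus strand) stood at 9.83, 7.91, 8.32, 8.05, 7.21, 6.76 and 5.74 FPKM over the 7 days. Relative to the median record the change over the whole course was -0.17, so most of its difference in FPKM was shared by the median gene. RCOR3 (chr1:211432708-211489723, plus strand) stayed between 11.5 FPKM at day 0 and 14.7 at day 11, ending at 13.0. That made +0.78 relative to the median record, without reaching 2-fold.

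Within a day, a share of the family total does not depend on how days were scaled. RCOR2 was the highest of the CoREST genes per length on every day. It made up 53.1% of the family's FPKM at day 0 and 64.2% at day 1, and then stayed between 63.2% and 65.2%. RCOR1 went from 21.6% at day 0 to 13.7% a day later and to 11.2% in the end, whereas RCOR3 held 25.3% at day 0 and 25.5% at day 18. The ratio of RCOR2 to RCOR1 was 2.46 at day 0, then 4.69 one day later and finally 5.62. Set against REST, RCOR2 was 3.14 times as high at day 0, 5.37 times as high a day later and 10.4 times as high at the end.

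**Figure D1:**
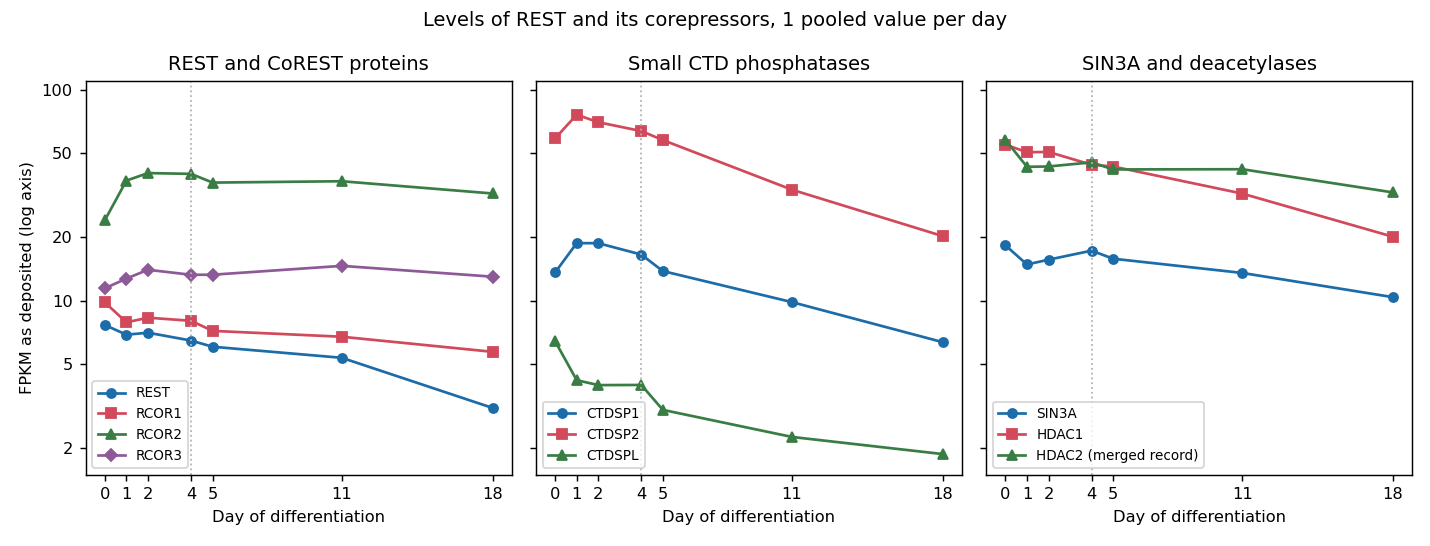
Deposited FPKM of the 10 members (log axis) against day of differentiation, 1 point per day and no error bars because each point is 1 pooled value. The dotted line marks the replating at day 4. RCOR2 steps up from 24.1 to 37.1 at day 1, CTDSP1 and CTDSP2 are highest at day 1, and REST, CTDSPL and HDAC1 end at their lowest values.

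**Figure D2:**
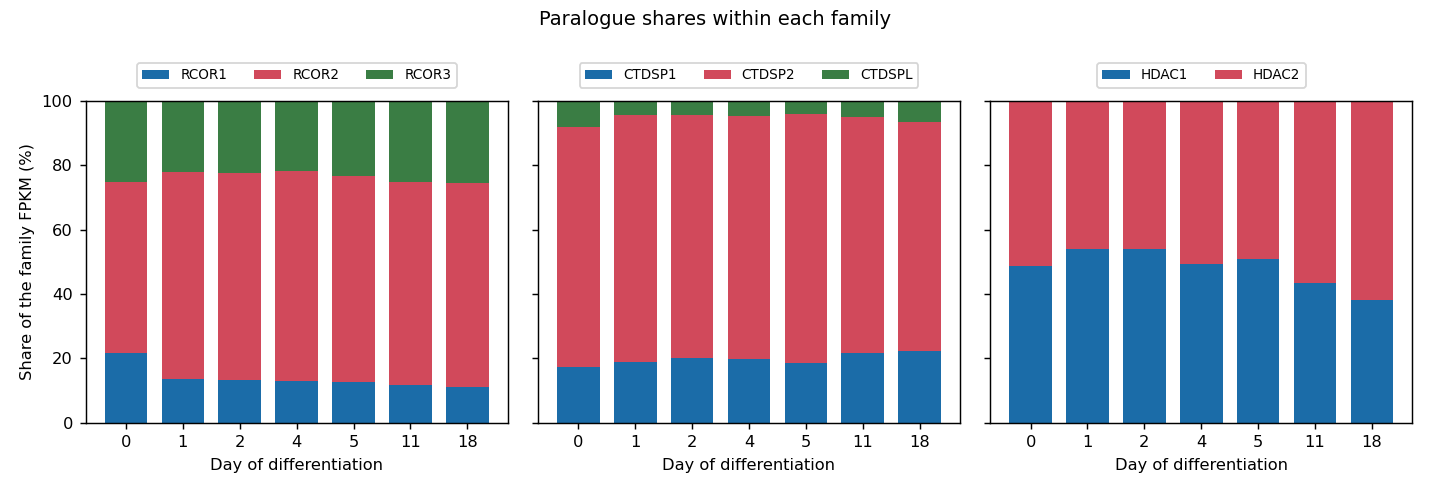
Share of each paralogue in the summed FPKM of its family (%), stacked to 100, by day. The RCOR1 share goes from 21.6% at day 0 to 11.2% at day 18, CTDSP2 keeps more than 70% of its family on every day, and the HDAC1 share ends at 38.1%.

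The small phosphatases had 2 patterns. CTDSP1 and CTDSP2 were highest at day 1 and lower on each later day up to the last, while CTDSPL was highest at day 0. CTDSP1 is also known to protect REST from degradation by removing a phosphate that marks it for turnover. Its record (chr2:219264478-219270663, plus strand) stood at 13.6, 18.8, 18.8, 16.6, 13.8, 9.86 and 6.37 FPKM over the 7 days. The first step was +0.57, and the change from there to the last day was -1.03.

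CTDSP2 (chr12:58213712-58240747, minus strand) stood at 58.9, 76.2, 70.2, 63.7, 57.8, 33.6 and 20.3 FPKM over the 7 days. It too went up at the first step, by +0.48, and from there to the last day it changed by -1.39, lower than all but 4.21% of coding records. From day 0 to day 18, which spans both directions, the change was -0.94 for CTDSP2 and -0.49 for CTDSP1. CTDSPL (chr3:37903669-38025959, plus strand) stood at 6.43, 4.21, 3.99, 4.00, 3.04, 2.27 and 1.88 FPKM over the 7 days. Its change over the whole course was -1.12, of which -0.49 lay in the first day.

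CTDSP2 held most of the family's FPKM throughout, from 71.1% at day 18 to 77.4% at day 5. The CTDSP1 share went from 17.3% at day 0 to 22.4% at day 18. The CTDSPL share was 8.15% at day 0, but 4.25% one day later and 6.59% at the end, lowest from day 1 to day 5 and higher again once the other 2 were lower. The ratio of CTDSP2 to CTDSPL was 9.15 at the start, 18.1 one day later and 10.8 at the end.

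Each CTDSP gene carries a hairpin of the miR-26 family in an intron, on the strand of its host, and the sequences are shown because they tie the 3 paralogues together beyond their proteins. By the annotation of hg19 positions, MIR26B lay at chr2:219267369-219267445 in intron 4 of 6 of CTDSP1, MIR26A2 at chr12:58218392-58218475 in intron 5 of 7 of CTDSP2, and MIR26A1 at chr3:38010895-38010971 in intron 5 of 7 of CTDSPL. None of the 3 hairpins overlapped an exon of its host. The mature sequences are from RefSeq (GRCh38.p14 table), with the seed, bases 2 to 8, in capitals.
hsa-miR-26b-5p, from the CTDSP1 intron: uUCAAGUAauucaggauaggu
hsa-miR-26a-5p, from the CTDSP2 and CTDSPL introns: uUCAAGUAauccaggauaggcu
All 3 share the seed UCAAGUA. Levels of the mature miRNAs were not measured in these polyA libraries, so the host levels above say nothing about them.

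SIN3A, the scaffold that binds the other end of REST, moved little. Its record (chr15:75661722-75748124, minus strand) stood at 18.3, 14.9, 15.7, 17.3, 15.8, 13.6 and 10.4 FPKM over the 7 days. The change from day 0 to day 18 was -0.21 relative to the median record. A long noncoding RNA on the opposite strand overlaps 8.46% of the record's exon bases, and without strand its reads could not be separated from those of SIN3A. No such overlap was found for the other 9 members.

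HDAC1 and HDAC2 encode the class I deacetylases found in both corepressor complexes. A record at the HDAC2 gene (chr6:114257327-114292354, minus strand) carries both symbols, and 99.5% of its exon bases lie in HDAC2 exons, so it was used for HDAC2. It also has the higher mean of the records that carry the symbol HDAC1 (43.8 FPKM against 42.3), so the selection by mean level would have used it for both genes. HDAC1 was instead read from the record on its own gene (chr1:32757708-32799224, plus strand), which carries HDAC1 alone. Relative to the median record, the chromosome 1 record changed by -0.85 and the merged record by -0.23. The second value is that of HDAC2, so it is no check on the direction of HDAC1.

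HDAC1 stood at 55.0, 50.6, 50.8, 44.1, 43.3, 32.2 and 20.1 FPKM over the 7 days. The last value was 36.6% of the first, a change of -0.85 relative to the median record. HDAC2 stood at 57.9, 43.2, 43.3, 45.3, 41.9, 42.0 and 32.6 FPKM over the 7 days. After a step of -0.31 at day 1 it changed by +0.12 to day 18, near the median record. The pair were thus close in FPKM at day 0, where HDAC1 made 48.7% of their sum, HDAC1 made 54.0% at days 1 and 2, and HDAC2 was the higher at day 18, when HDAC1 made 38.1%.

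Between adjacent days, 0 of 60 member changes reached 2-fold, and the median size of a member's step was 0.10 on the log2 scale. Among all coding records 6.76% reached 2-fold in either direction in the first step, then 0.271% (days 1 to 2), 0.78% (days 2 to 4), 0.416% (days 4 to 5), 5.72% (days 5 to 11) and 3.24% (days 11 to 18). With so few calls in the background, none among 10 members is near what all coding records showed.

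The time course of REST was compared with that of 11380 coding records, 1 per symbol, by Pearson correlation over the 7 days of the log2 values relative to each day's median record. Opposite therefore means opposite to REST after that recentring, not in FPKM. The days share 1 scaling and 1 set of cultures for all genes, so the correlations are descriptions. The records most like REST were C15orf63/SERF2 (0.995), FZD2, a Wnt receptor (0.988), HINT2 (0.985), TST (0.985) and GSTM1/GSTM5 (0.984). The most opposite were NAT12 (-0.992), EGLN1, an oxygen-sensing hydroxylase (-0.984), FRMD3 (-0.984), SBF2 (-0.982) and OSBPL2 (-0.982). NAT12 itself went from 6.53 FPKM at day 0 to 6.17 at day 18, so both it and REST were lower in FPKM at the end. Of the other members HDAC1 was the most like REST (0.958), and 99.5% of the records compared had a lower correlation. For CTDSP2 (0.848) and CTDSP1 (0.771) that share was 90.8% and 83.1%. RCOR3 (-0.796) and RCOR2 (-0.561) had negative correlations, but 13.1% and 27.6% of records lay lower still.

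On the same recentred scale, the records closest to RCOR2 were SPATA7, CUL9 and TSNARE1 (0.995 each), ZNF32 and TMEM86B (0.994 each), and the most opposite were PSMD13/S11 (-0.998), DLAT (-0.994), TIMM17A and NSUN2 (-0.993 each) and MYBBP1A (-0.992). Within the set, RCOR3 was the most like RCOR2 (0.840), with 89% of records lower. CTDSPL (-0.883) and RCOR1 (-0.855) were the most opposite, with 8.59% and 11.3% of records lower still.

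Among the partners of CoREST, 1 of 10 measured genes was called higher, 1 lower and 8 neither, with a median of +0.06 relative to the median record. With the values as deposited none was called higher and 2 lower, with a median of -0.54. GSE1, a subunit of LSD1-CoREST complexes, went from 10.7 FPKM to 19.9 within the first day and stood at 19.7 on the last, a change of +1.47. RREB1, a zinc finger factor found with the corepressor CTBP, went from 5.16 to 1.54 FPKM, a change of -1.08. KDM1A had no record under its symbol. A coding record without a symbol at its position (chr1:23345941-23410184) stood at 97.2 FPKM at the start, 62.9 after a day and 61.6 on the last day, a change of -0.06 over the whole course and -0.52 in the first day.

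None of 14 partners of SIN3A was called in either direction (0 higher, 0 lower, median -0.09 relative to the median record). The median was -0.69 as deposited, where 2 were called lower (RBBP7 and BRMS1), and +0.03 with each day divided by its FPKM sum. They ranged from -0.86 for RBBP7, a histone chaperone, to +0.60 for ARID4A. The record of ARID4B is merged with RBM34. Of 5 relatives of the CTDSP phosphatases none was called either, and their median was -0.30. As deposited, 1 of them (CTDSPL2) was called lower.

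Other chromatin factors that REST is known to recruit gave 3 calls lower, 0 higher and 5 neither among the 8 reported. Between day 0 and day 18 the histone methyltransferase SUV39H1 went from 9.13 to 2.25 FPKM (-1.37), the maintenance DNA methyltransferase DNMT1 from 49.1 to 14.5 (-1.15) and CDYL, which links REST to the methyltransferase EHMT2, from 13.7 to 4.39 (-1.02). Of 9 other histone deacetylases, 3 were called higher and 1 lower, with a median of +0.63. As deposited, 1 was called higher (HDAC5) and 2 lower (HDAC7 and HDAC3), and the median was +0.04. HDAC5, a class IIa enzyme, went from 4.87 FPKM to 10.3 in the first day and to 13.9 by the last (+2.09). HDAC9, of the same class, went from 4.09 to 7.54 (+1.47) and HDAC11 from 2.13 to 3.82 (+1.41), while HDAC7 went from 43.7 to 9.89 (-1.53). HDAC1 and HDAC2 (-0.23) lay below the median record, as did HDAC7 and HDAC3 (-0.695), while 7 of the 9 other deacetylases lay above it.

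Markers of cell division and of other cells moved over the same days. All 12 proliferation markers were called lower, and their summed FPKM went from 1106 at day 0 to 212.5 at day 18. Of 8 mesenchymal markers above the minimum, 7 were called lower, with the sum of the list at 758.7 FPKM at day 0 and 70.2 at day 18 and COL1A1 listed at 0 on every day. The neuron markers gave 6 called higher and 0 lower of 9. Their sum was 667.1 FPKM at day 0 and 869.3 at day 18, lowest at day 1 (413.8) and highest at day 11 (894.4). The progenitor markers gave 3 higher and 1 lower of 10, and their sum went from 3903 to 2086 FPKM. Of the progenitor genes, SOX2 stood at 126.5 FPKM and NES at 513.5 FPKM at day 0, but PAX6 at 4.31 and HES5 at 1.95. The 3 called higher were HES5 (+3.90), PAX6 (+1.85) and FABP7 (+1.00), and the 1 called lower was PROM1 (-2.32). The stem cell genes POU5F1 and NANOG never passed 0.108 and 0.0207 FPKM. Of the other stem cell markers, DPPA4 was present at 9.72 FPKM at day 0 and was called lower at day 18, with 2.25. In the astrocyte list, GFAP never passed 0.187 FPKM, while SLC1A3, a glutamate transporter that progenitors also express, went from 16.2 to 63.1 FPKM and was called higher, and S100B went from 8.69 to 4.25. The sum of that list went from 24.9 to 67.4 FPKM. The endothelial gene KDR went from 23.8 to 0.70 FPKM. The part of these markers in the changes of REST, HDAC1, DNMT1 and the other genes was not tested.

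Among the genes that act on REST after its transcription, 2 of 9 were called higher and 0 lower, whereas 1 was called higher (SRRM4) and 2 lower (USP7 and PRICKLE1) with the values as deposited. SRRM4, a neural splicing factor known to divert REST transcripts to a truncated form, stood at 0.424, 0.703, 0.964, 1.73, 3.32, 8.99 and 10.3 FPKM over the 7 days. That was +4.91 relative to the median record, and every day lay above the day before. BTRC, the ubiquitin ligase subunit that marks REST for degradation, went from 6.39 to 8.60 FPKM (+1.02). SRRM4 passed REST in FPKM between day 5 and day 11, as REST stood at 6.06 and 5.37 FPKM on those days. The isoforms of REST were not measured separately here.

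The target genes rose while REST transcripts were still present. Of the 32 listed targets 28 had a mean of at least 1 FPKM, and 21 of these were called higher, 1 lower and 6 neither, with a median of +2.54. As deposited, 18 were called higher and 1 lower. A gene low at day 0 passes that minimum only if it is high later, so the list was also counted at any level, where 23 of 32 were called higher and 1 lower, and among the 24 genes at 1 FPKM or more at day 0, where 17 were called higher and 1 lower. The background, over coding records with a mean of at least 1 FPKM, was 14.7% higher and 12.1% lower. It was not counted at any level or for records at 1 FPKM or more at day 0, so those counts have no matched background. The list was drawn from genes known to rise in neurons and with earlier results of these data known, so it is not independent evidence of a direction.

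The 4 largest rises among the targets were in genes of neurotransmission and the neuronal cytoskeleton. GRIA2, a glutamate receptor subunit whose record is merged with GRIA4, went from 0.501 FPKM at the start to 3.44 by day 5 and to 19.9 on the last day (+5.65). SYT4, a synaptic vesicle protein, went from 1.34 to 11.9 and 47.6 FPKM on the same days (+5.65). STMN2, a regulator of microtubules in growing axons, went from 32.3 to 238.2 and 727.4 FPKM (+5.09), and CDK5R2, an activator of the neuronal kinase CDK5, from 0.108 to 1.34 and 3.0 FPKM (+4.50). The 1 gene called lower was CALB1, a calcium-binding protein, which went from 52.4 FPKM to 7.31 by day 2 and ended with 9.42 (-1.86).

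The targets whose RE1 sites are printed above did not all move alike. SYP, a synaptic vesicle protein, stood at 1.75, 3.66, 4.44, 5.96, 8.24, 14.3 and 23.4 FPKM over the 7 days (+4.27). SNAP25, part of the fusion machinery of vesicles, stood at 2.63, 2.11, 2.36, 4.09, 5.56, 12.1 and 16.6 FPKM (+3.21). SYN1 (+3.46), SCN2A (+3.44) and CHGA (+3.36) rose by similar amounts. BDNF, whose protein was added to the medium, went from 1.13 to 1.12 FPKM (+0.58) with the same 15 letters in an exon.

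**Figure D3:**
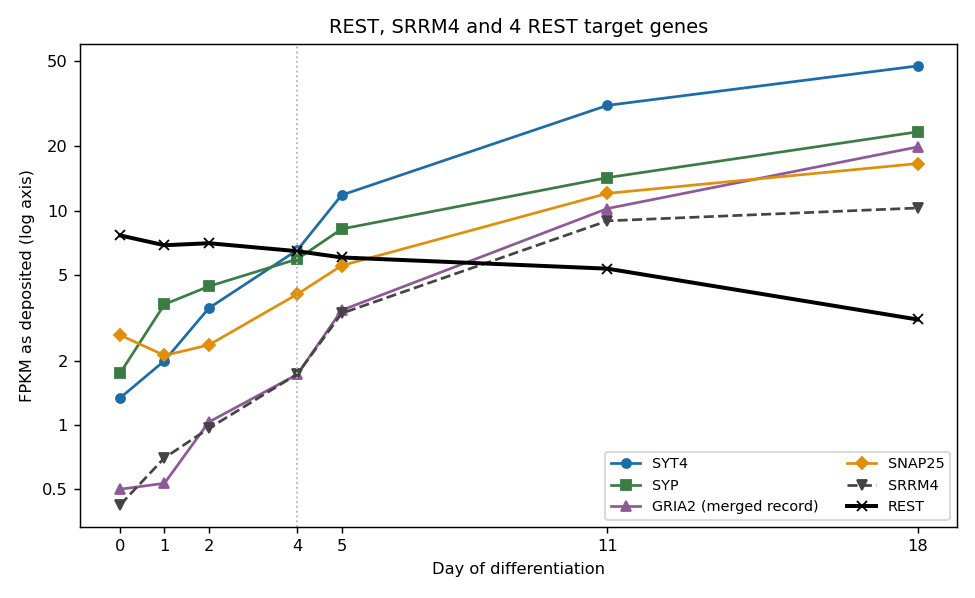
Deposited FPKM (log axis) of REST, of SRRM4 and of 4 REST target genes by day, 1 pooled value per point, with the replating at day 4 dotted. SYT4 and SYP exceed REST from day 4 or 5 onwards, while REST stays between 7.68 and 5.37 FPKM up to day 11.

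The sequence search gave a set of genes chosen without the target list. Of the 101 coding records with the 15 letters near their start, 53 had a mean of at least 1 FPKM, and 29 of these (54.7%) were called higher at day 18 and 3 (5.66%) lower, against 14.7% and 12.1% of all records. With the listed targets left out, 20 of 43 (46.5%) were called higher and 3 (6.98%) lower, and the median was +0.73. A record low at day 0 passes the minimum only if it is high later, so upward calls are favoured in both counts. TTC9B (0.167 FPKM at day 0), SYT5 (0.55) and SCN3B (0.247) were such records. The 43 were not counted again at 1 FPKM or more at day 0. Among the 42 records with the letters at 1 FPKM or more at day 0, 18 were called higher and 3 lower, with a median of +0.67. These 42 still include listed targets, and the share of all coding records under the same day 0 filter was not counted. The search was added after the data had been examined, and no test was made.

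Records with the letters that were not on the list and rose most were TTC9B (+5.29), SYT5, a synaptotagmin (+5.09), SLC17A6, the vesicular glutamate transporter of many projection neurons (+4.76), TNRC4, a CELF family RNA-binding protein (+4.24) and SCN3B, a sodium channel subunit (+4.14). The 3 called lower were SYT6 (-1.37), CNTNAP2 (-1.03) and KCNK12 (-1.03). These genes were picked for their values.

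The upward change of the records with the letters was spread over the course. Their median step relative to the median record was +0.35 from day 0 to day 1, +0.07 to day 2, +0.21 to day 4, +0.28 to day 5, +0.21 to day 11 and +0.35 to day 18. REST changed over the same steps by -0.04, -0.01, -0.12, -0.02, -0.01 and -0.49. The first day, with 39 of 53 records above the median record, brought as large a median step in the RE1 records as the last one. With the listed targets left out, these 2 median steps were +0.32 and +0.26 over 43 records. A record low at day 0 passes the minimum only if it is high later, so upward steps are favoured in this set. Whether the steps depend on the level of REST was not tested.

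**Figure D4:**
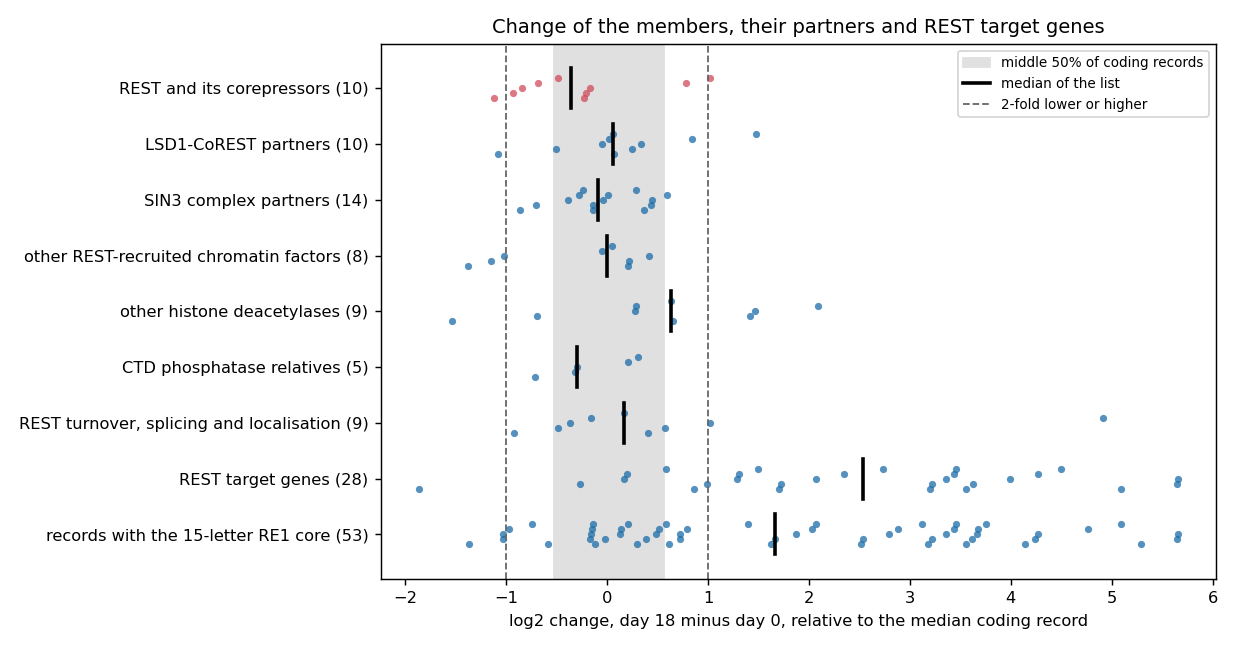
log2 change from day 0 to day 18 relative to the median coding record, 1 point per record with a mean of at least 1 FPKM, by list, with the number of records in brackets. Black bars are list medians, the grey band holds the middle 50% of coding records and dashed lines mark 2-fold. The members (red) spread from -1.12 to +1.02, while the REST target genes have a median of +2.54 and the records with the 15-letter core one of +1.66, or +0.67 among those at 1 FPKM or more at day 0.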

How the data were processed

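PolyA RNA from H1-derived neural progenitors was sequenced with an Illumina TruSeq kit. Reads were aligned to hg19 with TopHat2 per the submitters' processing notes. Per the study's methods, the authors assembled transcripts with Cufflinks and quantified their catalogue by Cuffdiff2 with its defaults, under which reads are not counted by strand unless set. Versions are not given in the sources used here. The deposited FPKM values hold 1 authors' estimate per record and day over all cultures of that day, and 0 columns hold a single sample. Depth is therefore unknown. The authors' comparison table also holds their fold changes, test statistics, p-values and q-values for adjacent days, which were not used. The day values of the 2 tables differed for 4 records.

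From these values changes in log2(FPKM + 0.1) were computed, relative to the median of coding records with a mean of at least 1 FPKM, with Python 3.11.15, pandas 2.3.3 and numpy 2.4.6, and drawn with matplotlib 3.10.9. The calculation was tested on simulated data. A test on single samples had been planned and could not be run on pooled values, so calls rest on a fold of 2 alone. Groups came from the sample titles. Genes were named by rule: all 10 members, up to 4 rising and 4 falling most past 2-fold in each list, SRRM4 and KDM1A, and the 5 records most like and most unlike REST and RCOR2. Genes named for their RE1 letters, list extremes and markers are additions. The members and lists were chosen with earlier results of these data known. Older symbols were used where the files hold them (GSE1 as KIAA0182). RE1 letters and hairpin positions were read from GRCh37, the sequence of hg19, in which no coding record ran past a chromosome end. The 942 coding records on other contigs were not scanned. Of the listed chromatin factors, 1 is not reported here.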

Additional observations from a re-analysis of the deposited data

How the results depend on the processing

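All 10 members kept their direction from day 0 to day 18 in all 90 recalculations over alternative scalings, pseudocounts, minimums and records. Not all of these could move a member. The day values of the other table left all 10 unchanged, and summing or swapping records altered HDAC1 only. The swap gives HDAC1 the record of HDAC2 and the sum adds that record, so neither checks HDAC1 alone. REST ranged from -1.28 (values as deposited) to -0.55 (pseudocount 1). The number of members past 2-fold, 2 in the report (RCOR2 higher, CTDSPL lower), depended on the setting. It was 5 with the values as deposited (REST, CTDSP1, CTDSP2, CTDSPL and HDAC1, all lower), 4 with no minimum FPKM (REST, CTDSP2, CTDSPL and HDAC1, all lower), 1 with lincRNA records in the median (CTDSPL), 1 with a minimum mean of 5 FPKM, which removes CTDSPL, 0 with pseudocount 1, and 6 at a fold of 1.5. At that fold 2 member steps passed, and none did under any other setting. RCOR2 and CTDSPL lie at the threshold, so their calls carry little weight. The HDAC1 share of its pair was 48.7% at day 0 and 38.1% at day 18. Summing all records of a symbol, which counts the merged record in both genes, made it 66.1% and 61.8%. With the merged record used for HDAC1, an alternative chosen after seeing the data, it was 50.0% on both days. That outcome was fixed, since both genes then had the same record. The calls over all lists together and the target genes called higher stayed within 1.5 times, but single short lists did not. Counted for each list after seeing the data, the values as deposited gave 1 higher and 2 lower among the other deacetylases (3 and 1 in the report), 0 and 2 among the CoREST partners (1 and 1), 0 and 2 among the SIN3A partners (0 and 0) and 1 and 2 among the genes acting on REST (2 and 0). Of the records with RE1 letters, 29 were called higher, against 46 with no minimum and 16 with a minimum of 5, since these test more or fewer records. No paired analysis was possible because the files hold 1 pooled value per day, and leaving out each culture in turn was not run for the same reason.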
